A study of Mus musculus with 4 samples.

Results

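The genes described here encode the subunits of oxidative phosphorylation, in both of the genomes that supply them. They were chosen by symbol among probe sets with exactly 1 gene symbol: nuclear symbols that start with Ndufa, Ndufb, Ndufc, Ndufs, Ndufv, Uqcr or Atp5, the genes Sdha to Sdhd and Cyc1, and Cox4 to Cox8 genes, together with the protein-coding genes of mitochondrial DNA. This gave 100 of the 22180 genes on the array, 90 nuclear and 10 mitochondrial, each represented by whichever of its probe sets was brightest on average. By symbol, 88 of the 100 encode subunits, 10 encode factors that are not established subunits (8 Ndufaf assembly factors, Cox7a2l and Ndufa4l2) and 2 are pseudogenes. Of the 13 proteins that mitochondrial DNA encodes, COX2, ATP6 and ATP8 were read only by probe sets that carry several symbols and are not reported.

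The cells were E14tg2a, a mouse embryonic stem cell line that grows without feeder cells, kept in serum with LIF, and total RNA was hybridised to GeneAtlas arrays. The groups were wild type (WT) at d0, WT at d2, Ctbp1/2 double knockout (DKO, lacking a pair of corepressor genes) at d0 and DKO at d2, with 1 array in each, all on strip 2. In the series PRDM14, a regulator of naive pluripotency, was overexpressed. The labels say neither how it was driven nor whether a DKO line is 1 clone, and d0 and d2 are taken as days of overexpression, which no array separates from time in culture. With 1 array per group a difference between 2 arrays has no error and no test. The 1 test that the design allows is limma's additive fit of genotype and day over all 4 arrays, whose error is the departure from additivity. In bulk RNA, fewer cells of a type and less RNA per cell cannot be told apart.

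Oxidative phosphorylation passes electrons from NADH and succinate through complexes I to IV to oxygen, and the proton gradient so formed drives ATP synthase (complex V). Complex II is wholly nuclear, whereas complexes I, III, IV and V each join nuclear subunits to subunits that mitochondrial DNA encodes. That DNA is transcribed as long polycistronic RNAs from both strands, and ND6 is the single protein-coding gene on the light strand. Naive embryonic stem cells respire actively, and primed cells rely more on glycolysis.

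The deposited values were taken as log2, on which a difference of 1 is 2-fold, but neither the base nor the scaling is stated. The values are low for RMA output, so each 2-fold difference given here rests on that assumption. The median over all probe sets was 0.354 and 0.367 in WT and 0.365 and 0.412 in DKO, with d0 named before d2 here and wherever 2 values of a genotype stand together. A value below 0.303, the 40th percentile of all values, is not shown to be above background. The DKO d2 array stood apart: its Pearson correlation with each other array was 0.727 over all probe sets, against 0.827 to 0.832 among the other pairs. By rank (Spearman) these were 0.472 to 0.479, against 0.555 to 0.577. The other arrays thus also ranked the probe sets only partly alike. The part of this array in the differences below was not tested, and the comparisons of WT d2 with WT d0 and of DKO d0 with WT d0 do not use it. The 12 stem cell markers all passed the filter on dim genes, but their median was 0.46 and 0.59 in WT and 0.64 and 0.44 in DKO. No marker among them had a mean of 1 or more, and on DKO d2 Dppa5a was at 0.00 and Esrrb at -0.04. These were the lowest of the 12 on that array. Pou5f1 was at 0.51 and Tfcp2l1 at 0.66 there. Lin28a had its highest value on DKO d2, against 0.39 and 0.85 in WT and 0.77 on DKO d0. The medians of the fibroblast, primitive endoderm, trophoblast and primed epiblast lists lay between 0.35 and 0.85. Levels of different probe sets are not comparable, so these medians do not say which cell type was present.

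Mitochondrially encoded genes gave the clearest signal of the 100. A mean of at least 1 was reached by 9 of the 10 mitochondrial genes and by 7 of the 90 nuclear genes (7.78%), against 4.85% of all genes. All 4 arrays lay at or above 0.303 for 9 of the 10 mitochondrial genes and 34 of the 90 nuclear genes (37.8%), against 35.2% of all genes. Levels of different probe sets depend on their probes, so these counts do not order the genes by abundance. The nuclear genes that stayed below 0.303 on all 4 arrays were Ndufa1, Ndufa6, Ndufaf7, Cox8b and Cox8c. Cox8b and Cox8c encode isoforms of muscle and of testis, whereas Ndufa1 and Ndufa6 encode subunits that every complex I contains.

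Complex I takes 7 of its core subunits from mitochondrial DNA. ND6, the light-strand gene, measured 8.14 and 7.99 in WT and 7.98 and 8.14 in DKO. Its 4 values spanned 0.16, with neither genotype and neither day consistently higher. ND4, which forms part of the proton-pumping arm, measured 4.02 and 3.78 on the WT arrays at d0 and d2 and 3.35 and 3.10 on the DKO arrays. Both DKO values lay below both WT values, by 0.67 at d0 (log2 difference -0.67) and 0.69 at d2 (-0.69). The limma estimate of this genotype difference was -0.68 (SE 0.41, adjusted p 0.943), so it did not pass.

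ND3, a small subunit of the same arm, measured 0.29 and 0.66 in WT and 0.84 and 1.02 in DKO, the opposite order. Its limma genotype estimate was 0.45 with a standard error of 0.18, at an unadjusted p of 0.0335 and an adjusted p of 0.943. ND2 measured 2.20 and 2.80 in WT and 2.19 and 1.76 in DKO. The genotypes were level at d0 and differed by -1.04 at d2, since WT was higher by 0.60 and DKO lower by 0.43 (-0.43) than at d0. ND1 measured 2.50 and 2.29 in WT and 2.05 and 2.41 in DKO. ND5 measured 2.73 and 2.19 in WT and 2.30 and 2.49 in DKO. In both genes the WT value was lower and the DKO value higher at d2 than at d0.

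ND4L differed least across arrays among the mitochondrial genes, at 2.45 and 2.46 in WT and 2.48 and 2.57 in DKO. Probe-set numbers on this array follow the genome: 98.9% of named probe sets lay on the same chromosome as most of the 20 nearest numbers. The numbers of the other 9 mitochondrial genes formed 1 block, but all 20 nearest neighbours of the ND4L probe set were genes of chromosome 1. The next number belongs to a probe set with the symbols ATP6, Gm10925 and ATP8, and RefSeq places the pseudogene Gm10925 on chromosome 1. Whether this probe set reads RNA of mitochondria or of chromosome 1 was not tested.

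The mitochondrially encoded genes reported here for complexes III and IV had their extreme values on DKO d2. CYTB, the cytochrome b of complex III, measured 2.12 and 1.98 in WT and 2.16 and 1.65 in DKO. COX1, which holds the oxygen-reducing centre of complex IV, measured 1.32 and 1.44 in WT and 1.20 and 0.94 in DKO. Both were lowest on DKO d2. COX3, a core subunit beside COX1, was highest there: it measured 0.98 and 0.73 in WT and 0.68 and 1.63 in DKO. The values of these genes of 1 polycistronic strand thus differed in opposite directions on the same array. With 1 array this was not tested.

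**Figure D1:**
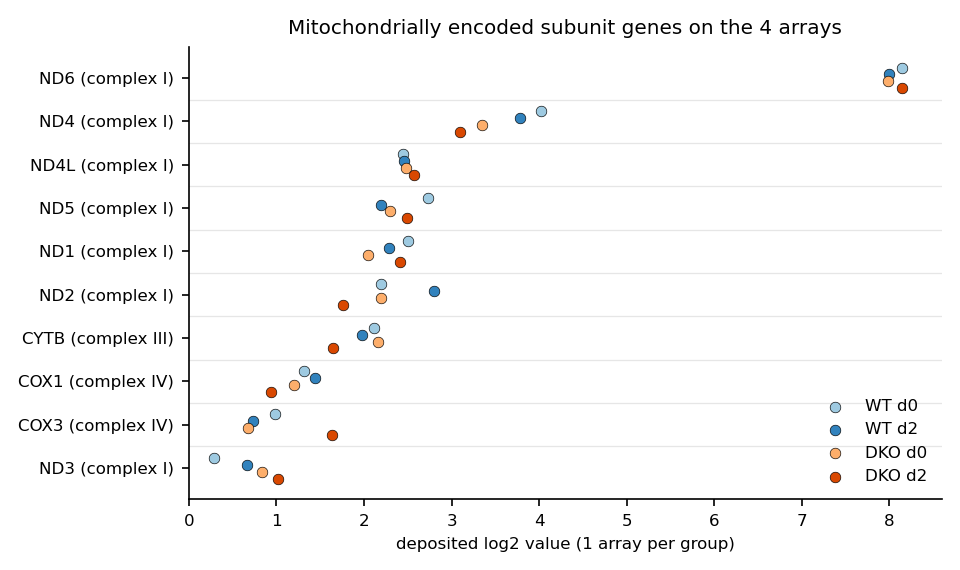
Deposited log2 values (horizontal axis) of the 10 mitochondrially encoded genes, 1 point for each of the 4 arrays, with no error bars because each group has 1 array. ND6 sits near 8 on every array, ND4 has both DKO points below both WT points, and COX3 has its DKO d2 point at 1.63, away from the other 3.

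Of the 10 mitochondrial genes, 5 had both DKO values outside the range of the WT values, against 33.2% of all genes, 2 above (ND3, ND4L) and 3 below (ND4, ND2, COX1). For ND2 the gap between the groups was 0.01, between 2.20 and 2.19. For ND4L the nearest values were 2.46 in WT and 2.48 in DKO, and the genome that its probe set reads was not tested. The WT d0 value of ND3, 0.29, was below 0.303. In the nuclear genes the count was 18 of 90, with 9 above and 9 below. By day, 1 mitochondrial gene (CYTB, lower at d2) and 34 nuclear genes, 20 higher and 14 lower, did not overlap, against 33.7% of all genes.

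Most nuclear subunit genes measured below 1 on every array, and few differed by 2-fold. In WT, 1 of the 100 genes differed by at least 2-fold between d2 and d0, against 0.32% of all genes and 3.07% of the 1075 genes with a mean of at least 1. In DKO the count was 3, against 0.888% of all genes and 7.16% of those with a mean of at least 1. Between genotypes it was 0 at d0, against 0.32% and 2.98%, and 3 at d2, against 0.87% and 7.07%. In the DKO change minus the WT change 6 genes passed, against 2.21% and 12.2%. All genes that passed in a comparison of 2 arrays had a mean of at least 1. Of the 16 such genes, 1 passed in WT and 3 in DKO between days. That mean includes the arrays compared, and Ndufa11 was below 1 on every array but DKO d2 (2.04).

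Cox5b, a nuclear subunit of complex IV, was the 1 gene past 2-fold in both genotypes. It measured 0.39 and 1.67 in WT and 1.04 and 2.39 in DKO. Both d2 values exceeded both d0 values, by 1.27 in WT and 1.34 in DKO, and DKO exceeded WT by 0.65 at d0 and 0.72 at d2. Fitted over both genotypes, limma put the d2 difference at 1.31 (SE 0.25, unadjusted p 0.000697), but the adjusted p was 0.923. With genes kept only above the 60th percentile, limma's adjusted p was 0.0313, and over the other settings it lay between 0.0802 and 0.93. The second Cox5b probe set measured 1.02 and 0.45 in WT and 0.35 and 0.85 in DKO, so it differed by -0.57 in WT and 0.50 in DKO. With both averaged, the d2 differences were 0.35 in WT and 0.92 in DKO.

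The Cox5b gene lies on chromosome 1, as do the neighbours of the second probe set. For the probe set with the large differences all 20 nearest numbers were genes of chromosome 13, with Zkscan4 before it and Zfp389 after. In RefSeq a pseudogene, Cox5b-ps, lies on chromosome 13 between Zkscan4 and Zfp389. Which of these transcripts the probe set measured was not tested.

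Other members with 2 probe sets were likewise read differently by each. For the 9 such genes, 36 pairs of differences can be formed over the 4 comparisons of arrays, and 13 pairs had the same sign. The 4 differences of a gene share arrays, so the pairs are not independent. The share over all genes with 2 probe sets was not taken. For Cox5b, Ndufa11, Atp5h, Atp5g2 and Cox7b, 1 of the 2 probe sets was numbered away from its gene. Whether the probe sets of these pairs read the same transcript was not tested. Atp5d, a subunit of the central stalk of ATP synthase, measured 1.88 and 2.11 in WT and 1.91 and 2.16 in DKO by its brighter probe set. The other read 0.84 and 0.95 in WT and 0.57 and 0.55 in DKO. Atp5e, of the same stalk, measured 0.66 and 1.09 in DKO by 1 probe set and 0.80 and 0.39 by the other. The Atp5h probe set used here was also numbered away from its gene, among genes of chromosome 15, where Atp5h lies on chromosome 11.

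**Figure D2:**
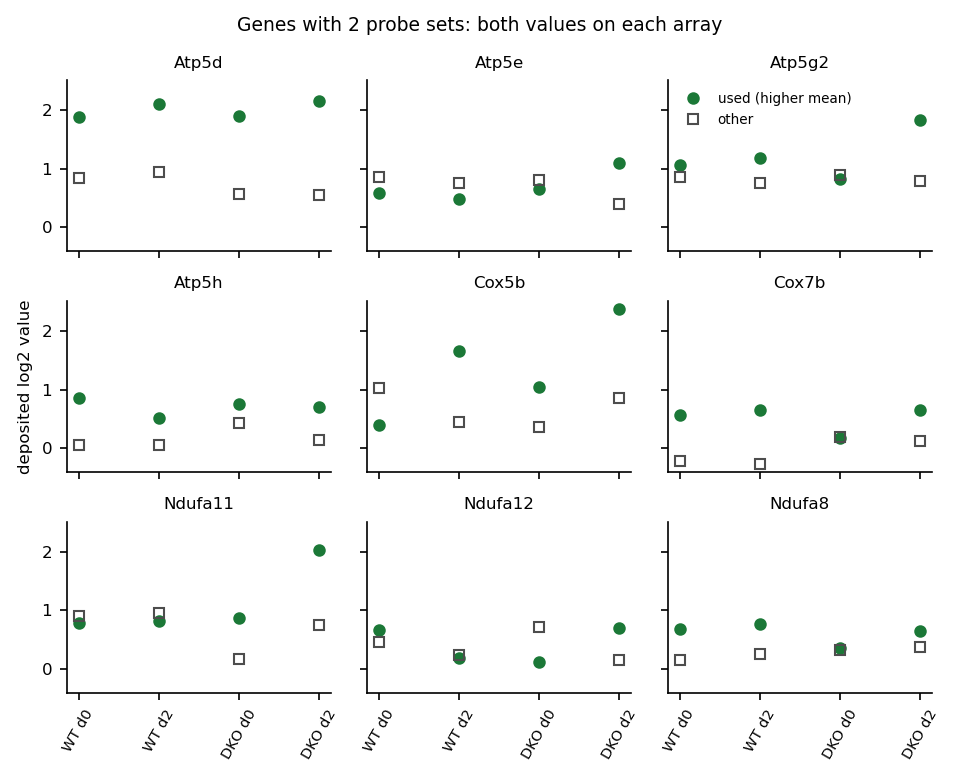
Both probe sets of the 9 genes that have 2, with the deposited log2 value on the vertical axis and the 4 arrays on the horizontal axis; filled circles are the probe set with the higher mean, open squares the other. For Cox5b the filled circles run from 0.39 to 2.39 and the open squares from 0.35 to 1.02, in a different order of arrays.

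In the nuclear part of complex I, 2 of 40 genes had a mean of at least 1. Ndufb11, a membrane-arm subunit encoded on the X chromosome, measured 1.27 and 1.55 in WT and 1.44 and 1.64 in DKO. Its d2 values exceeded its d0 values, by less than 2-fold. Ndufa11, which helps to hold the membrane arm together, measured 0.78 and 0.82 in WT and 0.87 and 2.04 in DKO. Its DKO d2 value alone was high, by 1.18 over DKO d0 and 1.22 over WT d2. The second Ndufa11 probe set measured 0.90 and 0.96 in WT and 0.16 and 0.75 in DKO, and did not have its highest value there. All 20 nearest numbers of that second probe set were genes of chromosome 17, where Ndufa11 lies. The probe set used here is numbered among genes of mixed chromosomes, 9 of the 20 nearest on chromosome 16, so its numbering does not place it at the gene.

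Ndufb7, a membrane-arm subunit, measured 0.67 and 1.14 in WT and 1.02 and 0.45 in DKO. Ndufa12 measured 0.67 and 0.19 in WT and 0.11 and 0.69 in DKO. Each gene differed by day in opposite directions in WT and DKO. The 8 Ndufaf assembly factors had no mean of at least 1. Ndufaf8 measured 0.63 and 0.35 in WT and 0.54 and 0.14 in DKO, lower at d2 in each, with a limma adjusted p of 0.923. Ndufb6, a membrane-arm subunit, measured 0.55 and 0.18 in WT and 0.73 and 0.33 in DKO. Ndufv3, at the NADH-binding tip, measured 0.89 and 0.56 in WT and 0.81 and 0.32 in DKO. Both d2 values of each lay below both d0 values.

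Complex II, which is also succinate dehydrogenase of the citric acid cycle, had no gene with a mean of at least 1. Sdhb, its iron-sulfur subunit, measured 0.44 and 0.99 in WT and 1.01 and 0.83 in DKO. The membrane anchors measured 0.65 and 0.12 in WT and 0.30 and 0.26 in DKO (Sdhc) and 0.55 and 0.33 in WT and 0.46 and 0.30 in DKO (Sdhd). For both anchors the d2 values lay below the d0 values, and 3 of the 4 Sdh genes did so, against 3162 of all 22180 genes. The third was Sdha, at 0.29 and 0.23 in WT and 0.37 and 0.26 in DKO. Of the 4 values of each gene, 3 lay below 0.303 for Sdha, 2 for Sdhc and 1 for Sdhd.

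In complex III, Uqcr11, a small subunit, was the brightest nuclear gene by mean. It measured 2.62 and 2.98 in WT and 2.53 and 1.95 in DKO, so that the genotypes differed by -0.09 at d0 and -1.03 at d2. Its DKO d2 value was the lowest of the 4. Cyc1, the cytochrome c1 that passes electrons on to cytochrome c, measured 0.66 and 0.50 in WT and 0.46 and 0.57 in DKO. The pseudogene Uqcrh-ps1 measured -0.08 and 0.39 in WT and 0.08 and 0.68 in DKO, with a limma unadjusted p of 0.00805 for day and an adjusted p of 0.923.

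Complex IV has isoform pairs in which 1 partner is common to most tissues and the other to few. The common Cox4i1 measured 0.47 and 0.30 in WT and 0.11 and 0.42 in DKO. The lung isoform Cox4i2 measured 0.11 and 0.22 in WT and 0.38 and 0.69 in DKO. Both DKO values of Cox4i2 lay above both WT values, with a limma genotype estimate of 0.38, a standard error of 0.15, an unadjusted p of 0.0344 and an adjusted p of 0.943. Both WT values of Cox4i2 were below 0.303. Cox6a1 measured between 0.49 and 1.08 and the muscle isoform Cox6a2 between 0.16 and 0.36. Cox6b1 measured between 0.47 and 0.96 and the testis isoform Cox6b2 between 0.45 and 1.06. Cox7a1, the heart and muscle isoform, measured between 0.50 and 0.60 and Cox7a2 between 0.32 and 0.40. Each range belongs to a different probe set, so the isoforms of a pair are not compared in level.

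Cox8a, the common form of the smallest subunit, measured 0.66 and 0.05 in WT and 0.13 and 0.55 in DKO. It went in opposite directions by day, and 2 of its 4 values were below 0.303. Ndufa4, first assigned to complex I and now counted with complex IV, measured 0.66 and 0.74 in WT and 0.87 and 1.68 in DKO. Its paralog Ndufa4l2, a hypoxia-responsive gene, was lowest on that array, at 0.00 against 0.50 to 0.60 on the others. Cox7a2l, a factor that joins complexes III and IV, measured 0.35 and 0.25 in WT and -0.04 and 0.42 in DKO. Cox7c measured 0.43 and 0.80 in WT and 0.23 and 0.61 in DKO, higher at d2 by 0.37 and 0.38, with a limma adjusted p of 0.923.

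In complex V the 3 genes of the c ring, whose products are identical once imported, were read at different levels. Atp5g2 measured 1.06 and 1.19 in WT and 0.83 and 1.84 in DKO, a difference of 1.01 by day in DKO. Its second probe set measured 0.90 and 0.79 in DKO, which does not show that difference. All 20 nearest numbers of that second probe set were genes of chromosome 17. Those of the probe set used here were genes of chromosome 15, where Atp5g2 lies. Whether both read the same transcript was not tested. Atp5g1 measured 0.58 and 0.83 in WT and 0.29 and 0.61 in DKO. Atp5g3 measured 0.15 and 0.37 in WT and 0.35 and 0.12 in DKO. The pseudogene Atp5c1-ps measured 1.49 and 1.07 in WT and 1.10 and 0.78 in DKO, lower at d2 in both genotypes by less than 2-fold.

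**Figure D3:**
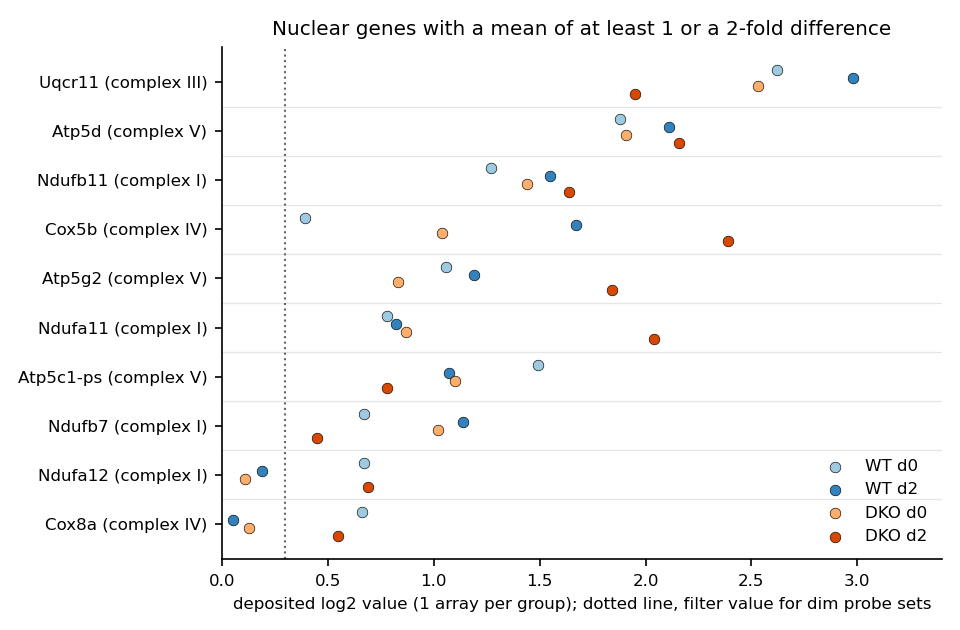
Deposited log2 values (horizontal axis) of the 10 nuclear genes with a mean of at least 1 or a 2-fold difference in any comparison, 1 point per array; the dotted line marks the filter value for dim probe sets. Ndufa11 and Atp5g2 have a lone high point on DKO d2, Uqcr11 a lone low point there, and Cox5b runs from 0.39 to 2.39.

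The choice by symbol did not use the promoters. RefSeq promoters (GRCm38.p6, 250 bases before to 50 after the start) were matched by symbol for 72 of the 90. The letters GCGCATGCG, the core of the site of NRF1, a regulator of respiratory genes, occurred on either strand in 10 of 72 (13.9%), against 2.81% of 15358 protein-coding genes of the array. CCGGAAG, the core of ETS and GABP sites, occurred in 19 (26.4%) against 13.3%, and AAGATGGCG, from the site of YY1, in 7 (9.72%) against 2.28%. At least 1 of the 3 occurred in 30 (41.7%) against 17.2%, so most of the 72 held none. In nuclear complex IV it was 3 of 14 (21.4%). TATAAA occurred in 8 (11.1%) against 14.4%. These shares were not tested, and the matches describe letters and show no binding. The NRF1, ETS and YY1 letters each contain CG. The CG count, the highest over a gene's promoters, had a median of 20 in the 72, against 16 in the protein-coding genes. A gene with several promoters was counted if any of them matched. Of the 7 nuclear genes past 2-fold in any comparison, the promoters of Ndufa11, Atp5g2, Uqcr11, Cox8a and Ndufb7 held such letters, and they are shown so that the sites can be seen, with the NRF1 and ETS letters in capitals. The searches of both strands overlap, since the NRF1 letters are nearly their own reverse complement.
Ndufa11, GRCm38.p6 chr17:56717512-56717811, plus strand: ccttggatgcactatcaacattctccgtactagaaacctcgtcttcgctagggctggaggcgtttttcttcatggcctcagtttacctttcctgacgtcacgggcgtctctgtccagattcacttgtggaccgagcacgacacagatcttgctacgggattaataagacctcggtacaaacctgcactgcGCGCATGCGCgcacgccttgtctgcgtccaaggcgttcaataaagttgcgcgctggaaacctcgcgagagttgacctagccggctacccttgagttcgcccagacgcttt
Atp5g2, GRCm38.p6 chr15:102670998-102671297, minus strand: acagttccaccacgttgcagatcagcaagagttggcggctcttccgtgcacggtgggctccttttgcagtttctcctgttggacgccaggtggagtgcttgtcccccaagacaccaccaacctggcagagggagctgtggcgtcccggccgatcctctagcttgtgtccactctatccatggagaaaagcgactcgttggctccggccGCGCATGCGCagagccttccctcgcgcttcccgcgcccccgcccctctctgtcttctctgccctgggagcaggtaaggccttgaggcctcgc
Uqcr11, GRCm38.p6 chr10:80406772-80407071, minus strand: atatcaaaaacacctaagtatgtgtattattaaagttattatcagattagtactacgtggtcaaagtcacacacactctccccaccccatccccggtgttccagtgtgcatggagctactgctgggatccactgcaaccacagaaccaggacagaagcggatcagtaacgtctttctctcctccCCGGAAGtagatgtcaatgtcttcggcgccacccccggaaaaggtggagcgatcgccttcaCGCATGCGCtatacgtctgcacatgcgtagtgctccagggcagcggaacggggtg
Cox8a, GRCm38.p6 chr19:7217567-7217866, minus strand: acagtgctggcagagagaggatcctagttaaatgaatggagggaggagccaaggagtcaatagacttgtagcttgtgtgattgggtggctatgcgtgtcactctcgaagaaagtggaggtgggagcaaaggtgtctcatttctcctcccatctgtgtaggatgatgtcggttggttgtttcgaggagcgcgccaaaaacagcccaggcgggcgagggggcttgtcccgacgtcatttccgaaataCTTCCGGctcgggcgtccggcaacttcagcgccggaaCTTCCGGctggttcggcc
Ndufb7, GRCm38.p6 chr8:83566508-83566807, plus strand: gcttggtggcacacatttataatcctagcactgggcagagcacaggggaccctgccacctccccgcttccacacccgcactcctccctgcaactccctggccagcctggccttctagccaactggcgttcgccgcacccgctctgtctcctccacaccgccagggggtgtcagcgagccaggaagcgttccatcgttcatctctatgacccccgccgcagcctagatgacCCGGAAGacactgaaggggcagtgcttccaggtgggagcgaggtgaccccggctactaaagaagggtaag
The promoter shown for Ndufa11 is that of its gene on chromosome 17.

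Both genomes were then compared across the arrays through the differences of their genes. In WT the median d2 difference was -0.14 for mitochondrial and 0.04 for nuclear genes, against 0.01 for all genes. In DKO it was 0.13 and 0.11, against 0.03. Between genotypes at d0 the medians were -0.14 and -0.06, against 0.01, and at d2 they were 0.11 and 0.05, against 0.04, and the nuclear median at d2 was 0 with equal array medians and -0.01 after quantile normalization. The mitochondrial median minus the nuclear median was thus -0.18 in WT and 0.01 in DKO by day, and -0.09 at d0 and 0.07 at d2 by genotype. The gap between the genomes was not tested.

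**Figure D4:**
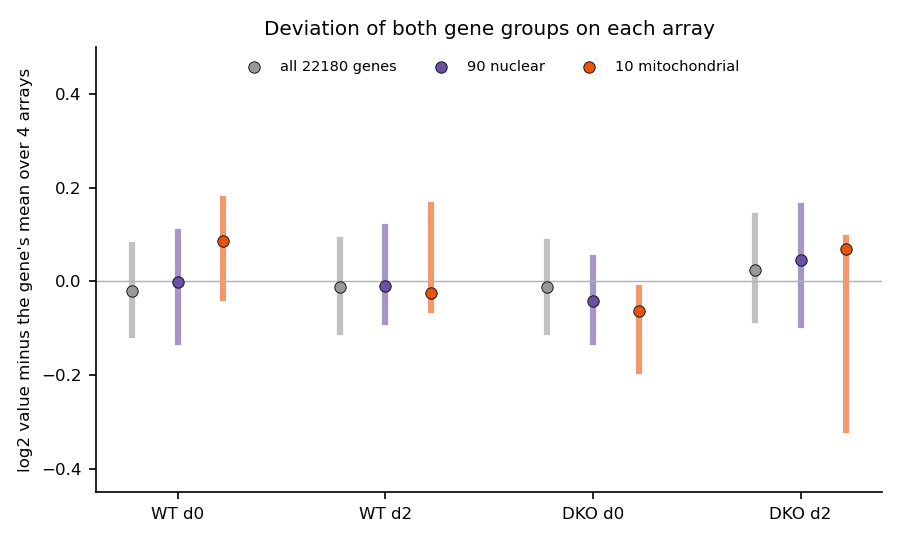
Deviation of each gene from its own mean over the 4 arrays (vertical axis, log2) on each array; points are medians and bars the interquartile range over all 22180 genes, the 90 nuclear and the 10 mitochondrial genes. The bars overlap on every array; mitochondrial genes have their highest median on WT d0 (0.09), and on DKO d2 their bar reaches down to -0.32.

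The d2 differences of the 2 genotypes come from separate arrays. They had the same sign in 45 of the 100 genes, against 51% of all genes, and their Pearson correlation over the 100 genes was 0.02, against 0.03 over all genes. The genotype differences at d0 and d2 had the same sign in 46 of the 100, against 50.2%, with a correlation of -0.08. Genes within an array share its labelling and background, so these are descriptions. DKO d2 was the array farthest from the other 3 for 37 of the 100 genes (37.0%), against 31.3% of all genes, and for 10 of the 16 genes with a mean of at least 1, against 35.3% of all genes as bright. That mean includes DKO d2 itself, and COX3 and Ndufa11 were below 1 on every other array. The choice of bright genes thus partly sets the count of 10. A range of at least 1 over the 4 arrays was seen for 6 of the 100 genes, against 2.15% of all genes and 16.3% of those with a mean of at least 1. Without DKO d2 it was seen for 1 of them, Cox5b, and for 172 of all 22180 genes.

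**Figure D5:**
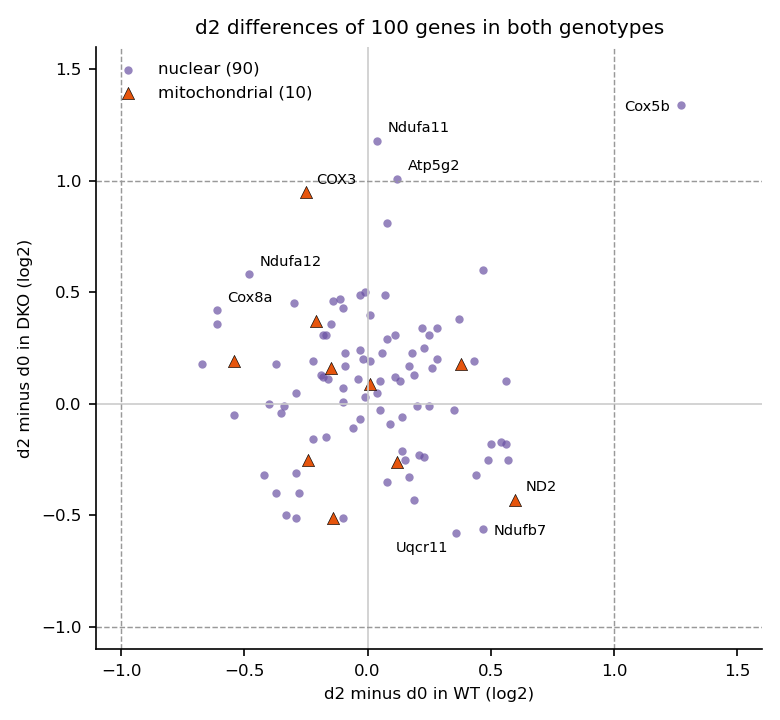
The d2 minus d0 difference in WT (horizontal axis, log2) and in DKO (vertical axis, log2) of the 100 genes, purple circles nuclear and orange triangles mitochondrial, with dashed lines at a 2-fold difference; genes past 2-fold in any comparison are named. Cox5b alone is past 2-fold on both axes, at 1.27 and 1.34, and the rest form a cloud around 0.

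Of the 95 genes that passed the filter on dim genes, limma called 0 for the shared d2 change and 0 for the shared genotype difference at an adjusted p under 0.05, against 0% of all 20015 genes in both. At an unadjusted limma p under 0.05 there were 6 for the d2 change, against 5.15% of all genes, and 4 for genotype, against 4.92%. The 6 were Cox5b, Cox7c and Uqcrh-ps1, higher at d2, and Ndufb6, Ndufv3 and Ndufaf8, lower. The 4 were Cox5b, Cox4i2, ND3 and Ndufa4, all higher in DKO. These shares stand near those of all genes.

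Among the 140 other genes of the pathway that were on the array (cytochrome c, assembly factors, mitochondrial transcription and translation, mitochondrial ribosomal proteins and nuclear regulators), 5 had a mean of at least 1 and 2 differed by 2-fold. These 2 were the mitochondrial ribosomal genes Mrpl23 and Mrpl24, higher in DKO than in WT at d2 by 1.37 and 1.12, in the comparison where 0.87% of all genes passed. Their WT d2 values were -0.15 and 0.02, below 0.303. At an unadjusted limma p under 0.05 there were 5 of 125 tested for the d2 change, against 5.15% of all genes, and 4 for genotype, against 4.92%, shares no higher than the background. Of these, limma called 0 at an adjusted p under 0.05. Tfam, which packages mitochondrial DNA and starts its transcription, measured 0.15 and 0.25 in WT and 0.51 and 0.42 in DKO. Polrmt, the mitochondrial RNA polymerase, measured 0.54 and 0.42 in WT and 0.54 and 0.72 in DKO. Tfb2m, its partner in opening the promoter, measured 1.10 and 0.88 in WT and 0.92 and 1.26 in DKO. Polg, the mitochondrial DNA polymerase, measured 0.18 on both WT arrays and 0.56 and 0.78 in DKO, with an unadjusted limma p of 0.012. Cytochrome c, Cycs, measured 0.61 and 0.55 in WT and 0.45 and 0.52 in DKO. Nrf1 measured 0.29 and 0.25 in WT and 0.53 and 0.61 in DKO. Ppargc1a, a coactivator of respiratory genes, measured 0.04 and 0.41 in WT and 0.14 and 0.43 in DKO. The WT values of Tfam, Polg and Nrf1 and the d0 values of Ppargc1a were below 0.303.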

How the data were processed

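RMA, with no version given, is named in the submitters' processing notes for the values, which were used as the authors deposited them and taken as log2, since no header states a base. Of 41345 probe sets, 23521 had 1 symbol, 1814 several and 16010 none; symbols were updated by Entrez number through RefSeq (GRCm38.p6), which changed no member. Fold counts and medians used all genes without a filter, since a filter on the highest value selects genes that differ. Limma 3.58.1 in R 4.3.3 (lmFit, eBayes with trend; genotype and day additive; 1 residual degree of freedom, prior 7.21) was fitted to the 20015 genes whose highest value reached the 40th percentile, with Benjamini-Hochberg adjustment over all of them, and was tested on simulated data. Members and lists were chosen with earlier results of these data known. Named genes were those past 2-fold, all mitochondrial ones, per complex the 3 brightest and the widest in range, isoform pairs, and those with an unadjusted limma p under 0.05. The number of arrays limits the precision. Suz12-knockout arrays were not analysed here. Python 3.11.15, pandas 2.3.3 and matplotlib 3.10.9 were used. The alternatives are given in the closing section.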

Additional observations from a re-analysis of the deposited data

Results flagged for a closer look

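In 5 genes the d2 difference had opposite signs in the genotypes and the DKO difference minus the WT difference reached 2-fold. With 1 array per group this was not tested. The value was 1.20 for COX3, 1.06 for Ndufa12, 1.03 for Cox8a, -1.03 for ND2 and -1.03 for Ndufb7. All 5 use the DKO d2 array, whose part was not tested. For Ndufa12 the second probe set differed by -0.21 in WT and -0.56 in DKO, with the same sign in both. Of the values of Cox8a and Ndufa12 on WT d2 and DKO d0, all 4 were below 0.303.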

How the results depend on the processing

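No paired analysis was possible because each group has 1 array and the labels give no replicate numbers. For the same reason no array could be left out of the fit, which would have no residual degree of freedom. Equal array medians, quantile normalization, cyclic loess, filters on dim genes, averaged probe sets, platform symbols and subunits only moved no median of either genome by more than 0.1. The medians themselves lay between -0.14 and 0.13, so this limit is too wide to show that they are stable. With equal array medians the DKO d2 median went from 0.11 to 0.06 in nuclear genes and from 0.13 to 0.08 in mitochondrial genes. The mitochondrial minus nuclear gap ran from -0.20 to -0.14 in the WT d2 difference, from -0.01 to 0.06 in the DKO d2 difference, from -0.12 to -0.07 by genotype at d0 and from 0.05 to 0.13 at d2. In the DKO change minus the WT change it ran from -0.03 to 0.03. Averaging probe sets left 0 genes past 2-fold by day in WT and 0 in DKO. At 1.5-fold the counts were 5 (WT by day), 6 (DKO by day), 2 (genotype at d0), 12 (genotype at d2) and 21 (DKO change minus WT change). For the d2 change limma called 1 of the 100 genes, Cox5b, with the filter at the 60th percentile. Over all genes limma called 11 for day and 4 for genotype with equal medians, and 12 and 6 with that filter, against 0 and 0. The filter at the 40th percentile in fold counts was added after seeing the data and changed no count by over 1.5 times. Signal over background could not be measured.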
